A study of Homo sapiens with 24 samples.

Results

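The genes described here drive cells through mitosis or police the mitotic spindle. They are 51 listed gene symbols, called members here and grouped by known role, and each was found as 1 Ensembl identifier among the 61860 listed in the count tables. RNA was counted in 24 libraries of OE33, a cell line from an adenocarcinoma of the lower esophagus, with 3 libraries in each of 8 groups and a control group for each of the 4 experiments. The HFD and ND libraries came from subcutaneous OE33 xenografts that had grown for 3 weeks in male BALB/c nude mice, which lack a thymus and hence mature T cells. The mice were bought at 4 weeks of age and acclimated for 1 week. They were fed a high-fat diet with 35% fat (HFD) or a normal diet with 4.3% fat (ND) for 8 weeks before the injection. Each group stayed on its diet while the tumours grew. The other 3 experiments were OE33 cultures. One compared cells transfected for 48 h with a plasmid for HA-tagged TRIM15, a ubiquitin ligase (HA-TRIM15), with cells given the empty vector (EV). The second compared cells given a short hairpin RNA against YY2, a zinc finger transcription factor (shYY2), with shControl cells at 72 h. The third compared a hairpin against FOXRED1, an assembly factor of respiratory complex I (shFOXRED1), with its own shControl cells at 72 h. Which hairpin was sequenced is not stated in the sources used here, and nothing says that libraries of a group came from separate cultures, so p-values measure only the spread between these libraries.

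In a dividing cell, cyclin B bound to the kinase CDK1 starts mitosis, and the transcription factors FOXM1 and B-MYB (MYBL2) raise the expression of late cell cycle genes shortly before. Kinetochores, protein plates on the centromeres, then capture microtubules of the spindle. As long as any kinetochore is unattached, the spindle checkpoint proteins hold back CDC20, the activator of the anaphase-promoting complex. Once CDC20 is free, this complex marks securin (PTTG1) and cyclin B for destruction, separase (ESPL1) opens the cohesin rings, and the chromosomes part. RNAs of these genes accumulate in G2 and mitosis and are low in resting cells, so in bulk RNA fewer cells in these phases and less RNA per cell cannot be told apart. Many of their promoters carry a CHR element (cell cycle genes homology region), bound by MuvB complexes, and CCAAT boxes, bound by NF-Y.

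Promoter sequences of 43 of the 51 members were found in a table of RefSeq promoters (GRCh38.p14), which run from 250 bases before to 50 bases after the start of the gene. AURKA, BIRC5, BUB3, FOXM1, KNL1, TPX2, TTK and UBE2C had no entry. A CHR element, searched on both strands as TTTGAA or in the form TTTAAA, was found in 36 of 43 member promoters (83.7%) and in 24.3% of 27305 promoters of the same length, taken once per gene symbol. A CCAAT box was found in 32 of 43 (74.4%) against 35.7% of all promoters. Both stood in 27 of 43 member promoters (62.8%) against 9.49% of all. An E2F-type match was TTCCCGC, or the related form TTGGCGC, or the further form TTCGCGC, and was found in 11 of 43 (25.6%) against 11.2%. A YY-type match was GCCATNTT, or the related form GCGGCCAT, or the further form ATGGCGGC, and was found in 3 of 43 (SPC24, CENPE and SMC4; 6.98%) against 9.18%. Motifs of different kinds may overlap in a window. These are letter matches and not measured binding.

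**Figure D1:**
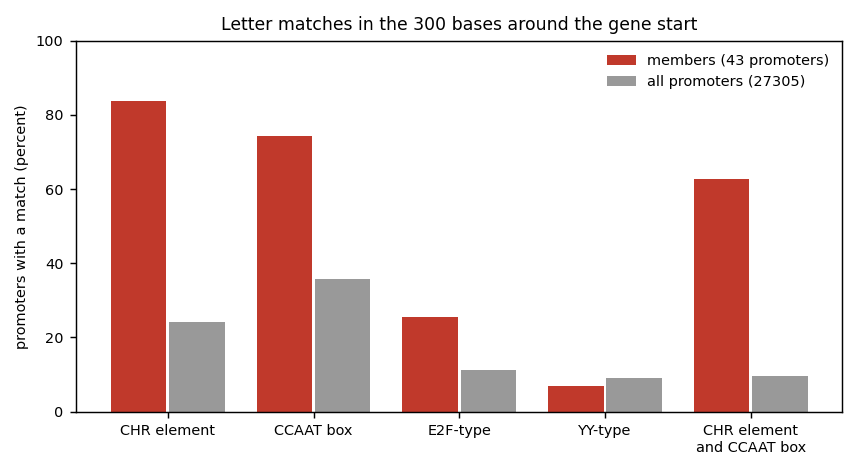
Percent of promoters (y axis) that hold each kind of letter match (x axis), for the 43 member promoters (red) and for all 27305 promoters of the same length (grey). CHR elements were found in 83.7% of member promoters and 24.3% of all, while YY-type matches were found in 6.98% and 9.18%.

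Of these, 5 promoters are shown because their genes mark the range of responses below. CCNB1 fell in the 3 culture experiments, KIF20A rose with shYY2, CCNB2 did not pass the test with shYY2, MAD2L1 fell in both knockdowns, and MYBL2 had the largest fall with shYY2. Each sequence runs 5′ to 3′ along the gene, and capitals mark CHR elements, CCAAT boxes and E2F-type matches on either strand.
CCNB1 (chr5:69166900-69167199, plus strand): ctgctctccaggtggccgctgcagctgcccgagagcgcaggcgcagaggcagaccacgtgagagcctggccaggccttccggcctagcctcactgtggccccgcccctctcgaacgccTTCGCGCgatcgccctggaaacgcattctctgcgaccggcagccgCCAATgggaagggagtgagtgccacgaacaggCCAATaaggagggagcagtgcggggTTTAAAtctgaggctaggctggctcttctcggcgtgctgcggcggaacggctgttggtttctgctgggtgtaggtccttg
KIF20A (chr5:138178862-138179161, plus strand): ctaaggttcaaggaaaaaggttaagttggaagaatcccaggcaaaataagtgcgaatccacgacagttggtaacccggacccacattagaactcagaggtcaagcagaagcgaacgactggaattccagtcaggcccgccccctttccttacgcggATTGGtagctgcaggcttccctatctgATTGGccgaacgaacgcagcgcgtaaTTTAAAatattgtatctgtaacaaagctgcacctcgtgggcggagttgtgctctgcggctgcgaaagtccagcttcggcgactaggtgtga
CCNB2 (chr15:59104896-59105195, plus strand): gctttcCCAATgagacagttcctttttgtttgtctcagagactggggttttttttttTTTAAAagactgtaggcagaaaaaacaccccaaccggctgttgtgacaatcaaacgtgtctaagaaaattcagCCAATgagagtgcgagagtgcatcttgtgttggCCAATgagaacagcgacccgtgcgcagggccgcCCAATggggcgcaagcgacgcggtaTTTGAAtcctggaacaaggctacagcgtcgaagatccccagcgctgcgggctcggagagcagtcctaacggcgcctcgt
MAD2L1 (chr4:120066799-120067098, minus strand): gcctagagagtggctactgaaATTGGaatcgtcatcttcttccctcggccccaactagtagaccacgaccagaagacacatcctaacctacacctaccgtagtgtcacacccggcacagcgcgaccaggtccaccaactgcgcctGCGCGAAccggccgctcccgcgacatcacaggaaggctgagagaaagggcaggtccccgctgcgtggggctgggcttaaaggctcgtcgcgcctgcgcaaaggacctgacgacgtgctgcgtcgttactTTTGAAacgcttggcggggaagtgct
MYBL2 (chr20:43666864-43667163, plus strand): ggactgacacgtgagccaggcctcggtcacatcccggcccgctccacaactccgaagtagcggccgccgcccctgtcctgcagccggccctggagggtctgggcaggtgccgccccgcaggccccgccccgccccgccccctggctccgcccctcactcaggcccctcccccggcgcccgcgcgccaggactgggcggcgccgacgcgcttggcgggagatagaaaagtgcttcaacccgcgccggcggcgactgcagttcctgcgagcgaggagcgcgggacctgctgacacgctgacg

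The CCNB1 window held 1 CHR element, 2 CCAAT boxes and 1 E2F-type match. The KIF20A window held 1 CHR element and 2 CCAAT boxes, both as ATTGG, the opposite strand. The CCNB2 window held 2 CHR elements and 4 CCAAT boxes, the MAD2L1 window 1 of each kind, and the MYBL2 window none of the exact forms searched. The MYBL2 window does hold TTGGCGG, which differs from the searched TTGGCGC only in its last base. MYBL2 was therefore placed among the members without an E2F-type match. In shYY2 the median change, on the log2 scale, was -0.55 for the 11 members holding an E2F-type match and -0.41 for the 32 without. In the other experiments these medians were 0.22 and 0.11 (HFD), -0.050 and -0.11 (HA-TRIM15) and -0.81 and -0.70 (shFOXRED1, 10 and 32 members). By CHR element, the shYY2 medians were -0.45 for the 36 members with a match and -0.17 for the 7 without. In the other experiments the CHR medians lay close together. They were 0.14 and 0.13 (HFD), -0.090 and -0.12 (HA-TRIM15) and -0.71 and -0.68 (shFOXRED1, 35 and 7 members). By CCAAT box the shYY2 medians were -0.43 for the 32 with and -0.60 for the 11 without. Members that hold a YY-type match had a median of -0.52 with shYY2 (3 members), against -0.43 for the 40 without. These medians are descriptions without a test.

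Library totals ranged from 14299807 to 45994561 counts. The targeted genes moved as labelled. In HA-TRIM15 libraries TRIM15 was counted 111, 130 and 181 times, and 0 times in each EV library. It had 14, 12 and 24 counts in HFD against 1, 0 and 0 in ND. YY2 had 11, 12 and 11 counts with shYY2 and 43, 40 and 46 with shControl, and FOXRED1 had 183, 207 and 129 counts with shFOXRED1 and 322, 259 and 254 with its shControl (log2 fold change -0.78 ± 0.11, SE). FOXRED1 was also lower with shYY2 (log2 fold change -0.89 ± 0.064, SE). Levels below are in CPM, read counts scaled to library size with TMM factors within an experiment unless stated otherwise. Epithelial markers summed to between 10350.0 and 15630.0 CPM in all libraries, 8 of 8 measured. Of 10 markers each, 1 fibroblast, 3 leukocyte and 1 endothelial marker passed the filter on low counts. Their human transcripts summed to at most 44.6, 28.3 and 28.1 CPM, and TYROBP was at 0 in both xenograft groups. In the xenografts the fibroblast sum was 24.0 to 27.4 CPM in HFD and 30.7 to 33.9 in ND. The epithelial sum was 12790 to 12960 CPM in HFD and 11790 to 12020 in ND. It was 15100 to 15630 CPM with shYY2 and 11140 to 11850 with its shControl. The part of these sums in the results was not tested. What was done with reads from mouse cells is not given in the sources used here.

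The members differed in level widely in level. On one scaling over the 24 libraries and per kilobase of exon (GENCODE 29), UBE2C, the ubiquitin-conjugating enzyme of the anaphase-promoting complex, was highest in EV cells at 179 CPM per kb. TPX2, which targets AURKA to the spindle, followed at 136, the cytokinesis scaffold ANLN at 102 and CCNB1 at 97.7 CPM per kb. SPC25 (1.00), PRC1 (0.331) and NUSAP1 (0.240 CPM per kb) were lowest. NUSAP1 shares 62.2% of its exon bases with a same-strand gene, AC087721.2, and PRC1 57.6% with AC068831.7, which had 3223 counts in all libraries against 730 for PRC1. NUSAP1 had 331 counts in all and AC087721.2 had 2. Whether reads on shared bases were left uncounted was not tested, and the values of these 2 genes are uncertain. NCAPG shares 33.1% of its exon bases with LCORL and SMC4 18.5% with TRIM59 on the opposite strand, and whether strand was used in counting is not settled. Annotated copies of members, such as KIF4B and UBE2CP5, had at most 0.808% of their member's counts.

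Summed over the 51 members, the level was 7527 ± 31.5 CPM in EV and 7268 ± 88.9 in the shControl cells of the YY2 experiment (SD, n = 3 each). It was 2679 ± 85.6 CPM in the shControl cells of the FOXRED1 experiment. In that group all 51 members lay below all 3 shControl libraries of the YY2 experiment, at 0.376 times their level in the median (range 0.223 to 0.726). CDK1, for example, was at 240.4 CPM in the first shControl and 65.1 CPM in the second. These controls belong to different experiments, so the experiment and the culture cannot be told apart, and no test was made. The xenografts lay between, at 4893 ± 113 CPM in ND and 5484 ± 31.6 in HFD. Against its own control, the summed level was 12.1% higher in HFD, and it fell by 4.59% in HA-TRIM15, by 25.0% in shYY2 and by 38.2% in shFOXRED1, with no overlap between libraries in any of the 4 experiments.

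**Figure D2:**
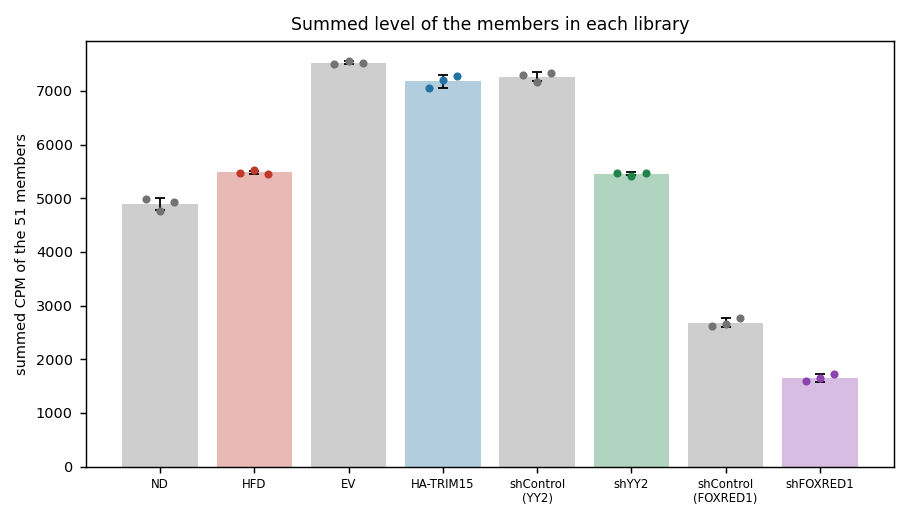
Summed CPM of the 51 members (y axis, from 0, one scaling over 24 libraries) in each of the 8 groups; bars are means, points are libraries and error lines are SDs of 3 libraries. The shControl libraries of the FOXRED1 experiment lie between 2611 and 2775 CPM and those of the YY2 experiment between 7168 and 7335.

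**Figure D3:**
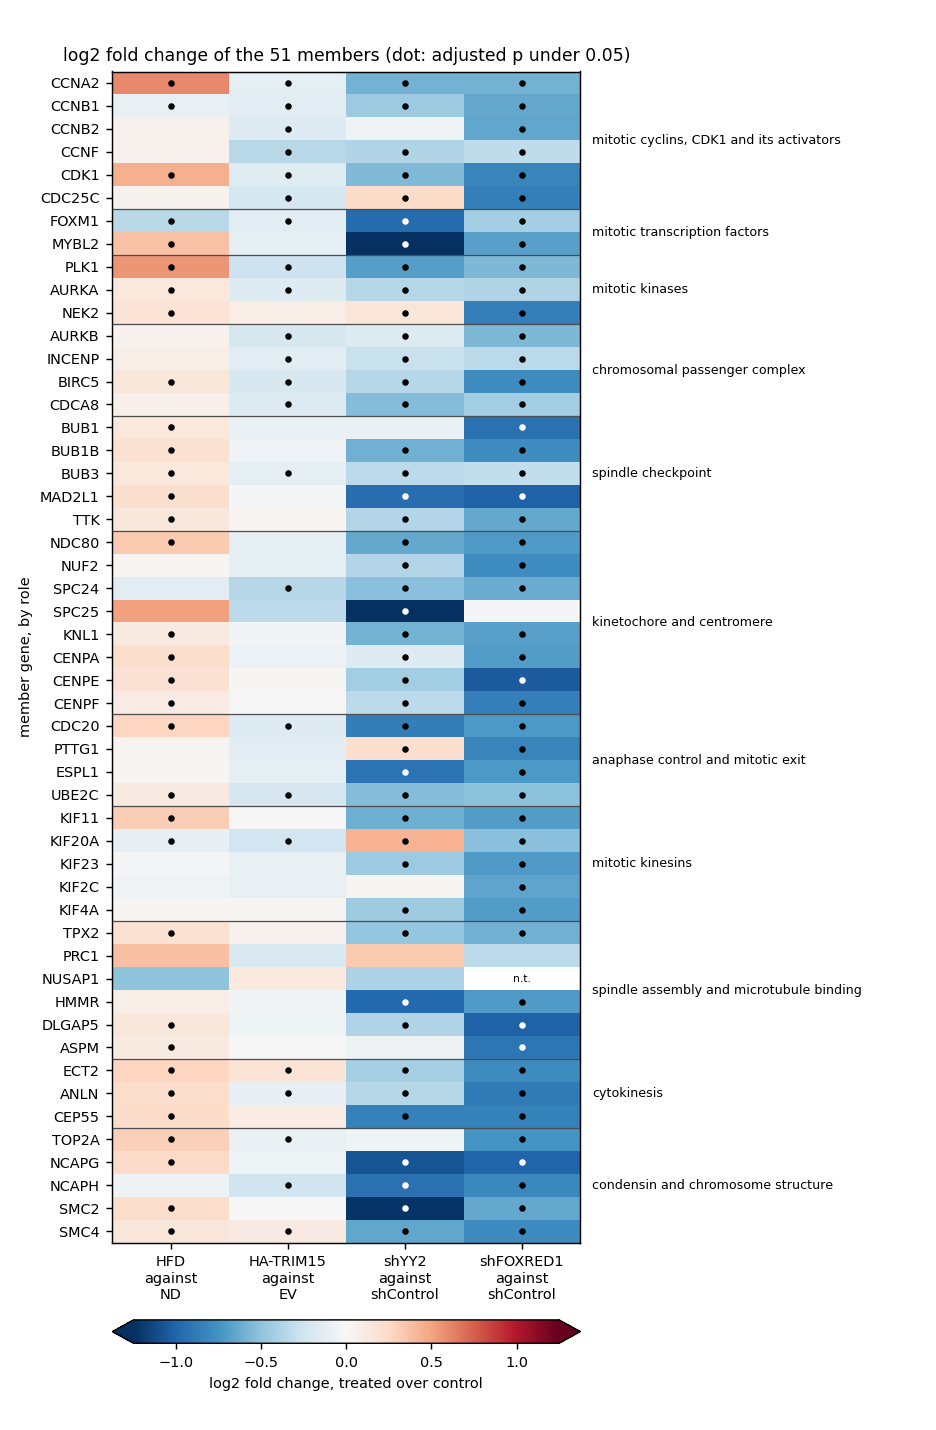
log2 fold change (colour, from blue for lower to red for higher in the treated group) of the 51 members (rows, by role) in the 4 experiments (columns). Dots mark an adjusted p under 0.05, and n.t. marks NUSAP1, which was too low to be tested with shFOXRED1. The shFOXRED1 column has 48 members called lower and none higher, the HFD column 30 higher and 3 lower.

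Xenografts of HFD mice had slightly more RNA of most mitotic genes than those of ND mice. At an adjusted p under 0.05 (edgeR quasi-likelihood test over all genes), 30 of 51 members were higher and 3 lower, where 25.6% of all 17012 genes tested were higher and 23.9% lower. Libraries of the groups did not overlap for 35 members, against 56.2% of all genes. The median log2 fold change was 0.14 over the members and -0.012 over all genes. The count depended on the scaling: with library totals alone 13 members were higher and 7 lower, with upper-quartile factors 19 and 6. Library totals moved the median of all genes by -0.11, and the share of all calls that were higher from 51.7% to 30.4% (39.8% with upper-quartile factors). No member changed 2-fold, and 9 of the 30 rose at least 1.2-fold.

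Among the genes that start mitosis, cyclin A (CCNA2) rose most. It was at 76.0, 72.05 and 72.3 CPM in HFD and 49.4, 47.3 and 48.9 CPM in ND (log2 fold change 0.60 ± 0.041, SE, adjusted p = 4.8e-09). CDK1, the kinase that drives entry into mitosis, was at 186, 197 and 189 CPM in HFD and 145, 137 and 139 CPM in ND (log2 fold change 0.44 ± 0.037, SE, adjusted p = 4.9e-08). The Polo kinase PLK1, which acts from mitotic entry to cytokinesis, was at 122, 122 and 119.6 CPM in HFD and 78.4, 87.6 and 81.5 CPM in ND (log2 fold change 0.55 ± 0.042, SE, adjusted p = 1.8e-08). In each of these 3 genes every HFD library lay above every ND library. Cyclin B, the partner of CDK1, did not rise with them. CCNB1 was at 193, 187 and 185 CPM in HFD and 207, 195 and 201 CPM in ND (log2 fold change -0.092 ± 0.036, SE, adjusted p = 0.044), and this call was lost with DESeq2's size factors or Wald test, without the filter, and when any library but ND replicate 2 was left out. CCNB2 (0.053 ± 0.043), CCNF (0.056 ± 0.051) and the phosphatase CDC25C (0.046 ± 0.057) did not pass the test.

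The mitotic transcription factors moved apart. MYBL2 rose, at 122, 123 and 126 CPM in HFD and 94.9, 101 and 90.4 CPM in ND (log2 fold change 0.36 ± 0.042, SE, adjusted p = 2.2e-06). FOXM1 fell, at 79.1, 77.5 and 80.1 CPM in HFD and 97.1, 105 and 99.8 CPM in ND (log2 fold change -0.35 ± 0.039, SE, adjusted p = 1.5e-06), and was the member with the largest fall past the test. Groups did not overlap in either gene, and both calls held under every scaling, filter, test and left-out library run. AURKA (log2 fold change 0.13 ± 0.035) and the centrosome kinase NEK2 (0.17 ± 0.042) also rose. In the chromosomal passenger complex, which corrects wrong attachments, the subunit BIRC5 rose (0.14 ± 0.038) and its kinase AURKB did not pass, at 32.0, 31.9 and 32.0 CPM in HFD and 31.9, 29.6 and 32.1 CPM in ND (log2 fold change 0.043 ± 0.050, SE, adjusted p = 0.50).

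All 5 spindle checkpoint genes rose, by small amounts. MAD2L1, which binds and holds CDC20, was at 69.0, 68.6 and 71.7 CPM in HFD and 60.9, 60.4 and 60.8 CPM in ND (log2 fold change 0.20 ± 0.038, SE, adjusted p = 3.3e-04). BUB1B, its partner in the inhibitory complex, was at 68.2, 66.3 and 69.7 CPM in HFD and 60.5, 57.7 and 62.2 CPM in ND (log2 fold change 0.19 ± 0.042, SE, adjusted p = 0.0015). BUB1, BUB3 and the kinase TTK had log2 fold changes of 0.13, 0.14 and 0.14. CDC20, the target of the checkpoint, rose too, at 77.3, 77.6 and 75.4 CPM in HFD and 63.9, 66.2 and 59.7 CPM in ND (log2 fold change 0.27 ± 0.043, SE, adjusted p = 6.3e-05). Securin and separase did not pass (0.031 ± 0.046 and 0.029 ± 0.043). Of 8 kinetochore and centromere genes 5 were higher. NDC80, which grips the microtubule, rose (0.33 ± 0.050), as did CENPA, the histone that marks centromeres, at 29.8, 29.3 and 27.7 CPM in HFD and 25.5, 24.6 and 24.4 CPM in ND (log2 fold change 0.22 ± 0.053, SE, adjusted p = 0.0030). SPC24, a subunit of the same NDC80 complex, went the other way without passing the test, at 25.9, 26.3 and 25.9 CPM in HFD and 27.3, 28.1 and 30.1 CPM in ND (log2 fold change -0.13 ± 0.053, SE, adjusted p = 0.056); it passed as lower under 4 alternatives, library totals and upper-quartile factors among them.

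Of the motors and spindle proteins, KIF11, which pushes the spindle poles apart, rose, at 147, 153 and 151 CPM in HFD and 124, 116 and 125 CPM in ND (log2 fold change 0.31 ± 0.039, SE, adjusted p = 5.2e-06). TPX2 was at 359, 356 and 342 CPM in HFD and 320.4, 300.2 and 306 CPM in ND (log2 fold change 0.19 ± 0.037, SE, adjusted p = 3.9e-04). KIF20A, a kinesin of cytokinesis, was called lower, at 63.8, 59.9 and 63.5 CPM in HFD and 66.3, 68.7 and 66.2 CPM in ND (log2 fold change -0.10 ± 0.041, SE, adjusted p = 0.045). This call was lost with DESeq2's size factors or Wald test, without the filter, with the replicate block and when any single library was left out. The cytokinesis genes ANLN, ECT2 and CEP55 were all higher. ANLN was at 441, 452 and 456 CPM in HFD and 395, 371 and 395 CPM in ND (log2 fold change 0.22 ± 0.036, SE, adjusted p = 9.2e-05). In the condensin group 4 of 5 were higher, among them TOP2A, which untangles DNA, at 387, 391.9 and 391 CPM in HFD and 327, 299 and 324 CPM in ND (log2 fold change 0.30 ± 0.038, SE, adjusted p = 5.6e-06). Called members with library totals alone did not include BUB1B, CENPA or TPX2.

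With HA-TRIM15, most members fell slightly or did not pass the test. Lower were 21 of 51 members and higher 2, where 9.53% of the 15745 genes tested were lower and 12.5% higher. Libraries did not overlap for 26 members, against 37.7% of all genes. The median log2 fold change was -0.11 over the members and -0.0065 over all genes, and no member changed 2-fold. All 6 genes of the cyclin and CDK1 group and all 4 of the chromosomal passenger complex were lower, but 0 of 6 spindle assembly genes, 1 of 8 kinetochore genes and 1 of 5 checkpoint genes. Leaving out EV replicate 3 left 12 members lower, and leaving out EV replicate 1 left 13. Over all genes, 1501 lower and 1973 higher calls became 787 and 1247 when EV replicate 3 was dropped, and 2506 and 2594 when HA-TRIM15 replicate 1 was. Of all calls 56.8% were higher, against 48.5% with upper-quartile factors and 40.6% with library totals.

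The largest falls were in SPC24 and CCNF. SPC24 was at 28.7, 26.2 and 23.6 CPM in HA-TRIM15 and 33.8, 33.9 and 33.1 CPM in EV (log2 fold change -0.35 ± 0.064, SE, adjusted p = 0.0013). CCNF, the cyclin F subunit of a ubiquitin ligase, was at 60.4, 56.4 and 58.1 CPM in HA-TRIM15 and 73.5, 74.4 and 74.8 CPM in EV (log2 fold change -0.35 ± 0.041, SE, adjusted p = 2.9e-05). PLK1 was at 164, 155 and 157 CPM in HA-TRIM15 and 193, 184 and 194 CPM in EV (log2 fold change -0.26 ± 0.036, SE, adjusted p = 1.5e-04). In all 3 genes every HA-TRIM15 library lay below every EV library. CDK1 was at 189, 204 and 201 CPM in HA-TRIM15 and 218, 225 and 217 CPM in EV (log2 fold change -0.15 ± 0.036, SE, adjusted p = 0.0067). Its partner CCNB1 was at 214, 218 and 226 CPM in HA-TRIM15 and 242, 246 and 239.9 CPM in EV (log2 fold change -0.15 ± 0.033, SE, adjusted p = 0.0056). FOXM1 was at 117, 109 and 119 CPM in HA-TRIM15 and 132, 124 and 126 CPM in EV (log2 fold change -0.15 ± 0.041, SE, adjusted p = 0.020), a call that was lost when HA-TRIM15 replicate 2, EV replicate 1 or EV replicate 3 was left out. MYBL2 did not pass, at 214, 188 and 199 CPM in HA-TRIM15 and 216, 213 and 223 CPM in EV (log2 fold change -0.12 ± 0.042, SE, adjusted p = 0.057), though it did with DESeq2's size factors or Wald test, among others.

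AURKB was at 40.0, 37.8 and 35.02 CPM in HA-TRIM15 and 43.9, 42.5 and 43.6 CPM in EV (log2 fold change -0.20 ± 0.052, SE, adjusted p = 0.013), a call lost without HA-TRIM15 replicate 3 or EV replicate 3. CDC20 was at 122, 118 and 117 CPM in HA-TRIM15 and 134, 134 and 131 CPM in EV (log2 fold change -0.16 ± 0.034, SE, adjusted p = 0.0038). UBE2C (log2 fold change -0.21 ± 0.035), BIRC5 (-0.20 ± 0.050) and NCAPH, a condensin subunit (-0.25 ± 0.041), fell as well, and so did KIF20A (-0.24 ± 0.042) and CDC25C (-0.22 ± 0.067). ANLN, at 529.9, 564 and 576 CPM in HA-TRIM15 and 598, 600.5 and 589.8 CPM in EV (log2 fold change -0.099 ± 0.033, SE, adjusted p = 0.044), and TOP2A, at 476, 486 and 486 CPM in HA-TRIM15 and 508, 516 and 509.6 CPM in EV (log2 fold change -0.083 ± 0.028, SE, adjusted p = 0.048), passed narrowly and lost the call without any of several single libraries. Against the majority, ECT2, the exchange factor that starts the cleavage furrow, rose from 283, 283 and 279.5 CPM in EV to 302, 320.2 and 328 in HA-TRIM15 (log2 fold change 0.17 ± 0.034, SE, adjusted p = 0.0030). SMC4, the condensin ATPase, was also called higher, at 370.4, 386 and 397 CPM in HA-TRIM15 and 351, 362 and 357 CPM in EV (log2 fold change 0.11 ± 0.033, SE, adjusted p = 0.028), but not with upper-quartile factors, library totals or no filter.

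Of the genes followed library by library, 5 more did not pass the test. MAD2L1 was at 104, 111 and 110.0 CPM in HA-TRIM15 and 106, 107 and 113 CPM in EV (log2 fold change -0.011 ± 0.039). BUB1B was at 82.5, 83.7 and 91.0 CPM in HA-TRIM15 and 88.7, 89.3 and 86.2 CPM in EV (-0.040 ± 0.043). KIF11 was at 191, 203 and 199.9 CPM in HA-TRIM15 and 197, 197 and 198 CPM in EV (0.0063 ± 0.033). The libraries of these 3 genes overlapped between the groups. CENPA was at 26.2, 26.6 and 25.5 CPM in HA-TRIM15 and 27.3, 29.2 and 26.2 CPM in EV (-0.077 ± 0.059), again with overlap. TPX2 was at 490.2, 503 and 490.5 CPM in HA-TRIM15 and 475, 479 and 479.6 CPM in EV (0.049 ± 0.028), with every HA-TRIM15 library above every EV library but an adjusted p of 0.24.

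With shYY2, 40 of 51 members fell and 4 rose, where 38.1% of the 16006 genes tested were lower and 36.8% higher. Libraries did not overlap for 46 members, against 76.3% of all genes. The median log2 fold change was -0.44 over the members and -0.0081 over all genes, and 4 members fell at least 2-fold. The falls were unequal. Fibroblast markers summed to 42.7 to 44.6 CPM with shYY2 and 11.3 to 12.7 with shControl. Of these 10 markers 1 was high enough to be tested, and PDGFRA and THY1 were at 0 in all shYY2 libraries. Leukocyte markers went the other way, at 10.65 to 11.28 CPM with shYY2 and 14.83 to 16.42 with shControl. Endothelial markers overlapped (14.82 to 17.04 and 15.32 to 17.05 CPM). Both groups were OE33 cultures, so these sums do not count such cells. Medians by role ranged from -1.38 for the transcription factors and -0.93 for the condensin group to -0.32 for the chromosomal passenger complex.

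MYBL2 fell most of all members, with libraries at 60.1, 59.6 and 55.2 CPM in shYY2 and 206, 203 and 201 CPM in shControl (log2 fold change -1.80 ± 0.036, SE, adjusted p = 1.1e-15). FOXM1 was at 57.9, 56.7 and 59.3 CPM in shYY2 and 117, 115 and 107 CPM in shControl (log2 fold change -0.96 ± 0.040, SE, adjusted p = 3.8e-12). The shYY2 libraries of both factors lay far below the shControl libraries. SMC2 and NCAPG, condensin subunits that compact chromosomes, fell further than FOXM1. SMC2 was at 60.01, 64.4 and 62.7 CPM in shYY2 and 144, 138 and 155 CPM in shControl (log2 fold change -1.23 ± 0.044, SE, adjusted p = 7.5e-13). NCAPG was at 54.0, 53.6 and 55.1 CPM in shYY2 and 114, 113 and 116 CPM in shControl (log2 fold change -1.08 ± 0.034, SE, adjusted p = 1.6e-13). SPC25 also fell (log2 fold change -1.66 ± 0.32, SE, adjusted p = 2.2e-04), but from 1.48, 1.42 and 2.42 to 0.365, 0.480 and 0.811 CPM, on 6, 8 and 15 counts in the shYY2 libraries.

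MAD2L1 was at 49.7, 50.3 and 51.8 CPM in shYY2 and 96.5, 96.3 and 100.5 CPM in shControl (log2 fold change -0.95 ± 0.037, SE, adjusted p = 1.6e-12). BUB1B was at 56.4, 54.9 and 54.2 CPM in shYY2 and 87.4, 80.9 and 82.0 CPM in shControl (log2 fold change -0.60 ± 0.040, SE, adjusted p = 1.4e-09), and BUB3 and TTK fell too (-0.33 ± 0.029 and -0.36 ± 0.041). The fifth checkpoint gene, BUB1, did not pass (log2 fold change -0.086 ± 0.038, SE, adjusted p = 0.054). CDC20 was at 59.8, 58.2 and 56.3 CPM in shYY2 and 108, 105 and 105 CPM in shControl (log2 fold change -0.87 ± 0.036, SE, adjusted p = 3.6e-12). ESPL1, the protease separase, fell alike (-0.93 ± 0.042), and UBE2C by less (-0.54 ± 0.032). All 8 kinetochore and centromere genes were called lower. SPC24 was at 21.9, 19.7 and 22.3 CPM in shYY2 and 30.6, 27.2 and 33.3 CPM in shControl (log2 fold change -0.52 ± 0.075, SE, adjusted p = 1.3e-05). CENPA was at 25.3, 23.2 and 24.2 CPM in shYY2 and 27.7, 24.5 and 28.9 CPM in shControl (log2 fold change -0.16 ± 0.067, SE, adjusted p = 0.042), where the groups overlapped and the call was lost under 9 of the alternatives.

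CDK1 was at 170.0, 163 and 164 CPM in shYY2 and 233, 243 and 251 CPM in shControl (log2 fold change -0.55 ± 0.033, SE, adjusted p = 3.9e-10). CCNB1 was at 149, 152 and 148 CPM in shYY2 and 209.8, 205 and 199 CPM in shControl (log2 fold change -0.45 ± 0.030, SE, adjusted p = 1.5e-09). CCNB2, the other B-type cyclin, was at 65.7, 61.0 and 68.9 CPM in shYY2 and 65.7, 67.0 and 70.2 CPM in shControl (-0.053 ± 0.046) and did not pass. The B-type cyclins thus had different calls. PLK1 was at 97.4, 95.4 and 95.7 CPM in shYY2 and 153, 165 and 148 CPM in shControl (log2 fold change -0.69 ± 0.038, SE, adjusted p = 1.3e-10). AURKB, close to the threshold, was at 35.1, 34.9 and 34.0 CPM in shYY2 and 38.2, 43.1 and 36.3 CPM in shControl (log2 fold change -0.17 ± 0.060, SE, adjusted p = 0.016), a call lost under 4 alternatives. No library overlapped in CDK1, CCNB1, PLK1 or AURKB. KIF11 was at 139.6, 143 and 137 CPM in shYY2 and 210.4, 213 and 218 CPM in shControl (log2 fold change -0.61 ± 0.030, SE, adjusted p = 3.3e-11). TPX2 was at 338, 327 and 335 CPM in shYY2 and 480.0, 453 and 459.8 CPM in shControl (log2 fold change -0.48 ± 0.030, SE, adjusted p = 5.1e-10). ANLN was at 472, 477 and 476 CPM in shYY2 and 604, 596 and 626 CPM in shControl (log2 fold change -0.36 ± 0.027, SE, adjusted p = 7.3e-09). These 3 genes, too, had every shYY2 library below every shControl library. HMMR, a microtubule-binding protein, fell further (-0.97 ± 0.037), as did CEP55 of the abscission site (-0.84 ± 0.031).

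Against the majority, 4 members rose with shYY2, and every shYY2 library of each lay above every shControl library. KIF20A was at 89.3, 84.0 and 89.8 CPM in shYY2 and 65.8, 65.1 and 63.6 CPM in shControl (log2 fold change 0.44 ± 0.037, SE, adjusted p = 3.0e-08). PTTG1 was at 86.2, 81.7 and 83.4 CPM in shYY2 and 74.1, 69.2 and 74.2 CPM in shControl (log2 fold change 0.21 ± 0.038, SE, adjusted p = 1.5e-04). CDC25C, which activates CDK1, was at 21.9, 21.4 and 22.0 CPM in shYY2 and 18.9, 17.8 and 19.1 CPM in shControl (log2 fold change 0.23 ± 0.062, SE, adjusted p = 0.0039). The kinase NEK2, splits the centrosomes and was at 82.0, 83.9 and 79.9 CPM in shYY2 and 75.7, 68.9 and 76.0 CPM in shControl (log2 fold change 0.15 ± 0.042, SE, adjusted p = 0.0035). The count of 4 was the same under each alternative filter, test and left-out library and became 5 with upper-quartile factors, and of the 4 only KIF20A rose at least 1.2-fold. CDC25C shares 8.8% of its exon bases with FAM53C and KIF20A 3.3% with BRD8 on the opposite strand. The 7 members that did not pass were CCNB2, BUB1, KIF2C, ASPM, TOP2A, PRC1 and NUSAP1. TOP2A, among the most abundant members, was at 543, 539 and 554 CPM in shYY2 and 573, 549 and 572 CPM in shControl (log2 fold change -0.049 ± 0.028, SE, adjusted p = 0.12). KIF2C, a kinesin that takes microtubules apart, had a log2 fold change of 0.022 ± 0.037, and ASPM, a spindle pole protein, of -0.063 ± 0.029.

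**Figure D4:**
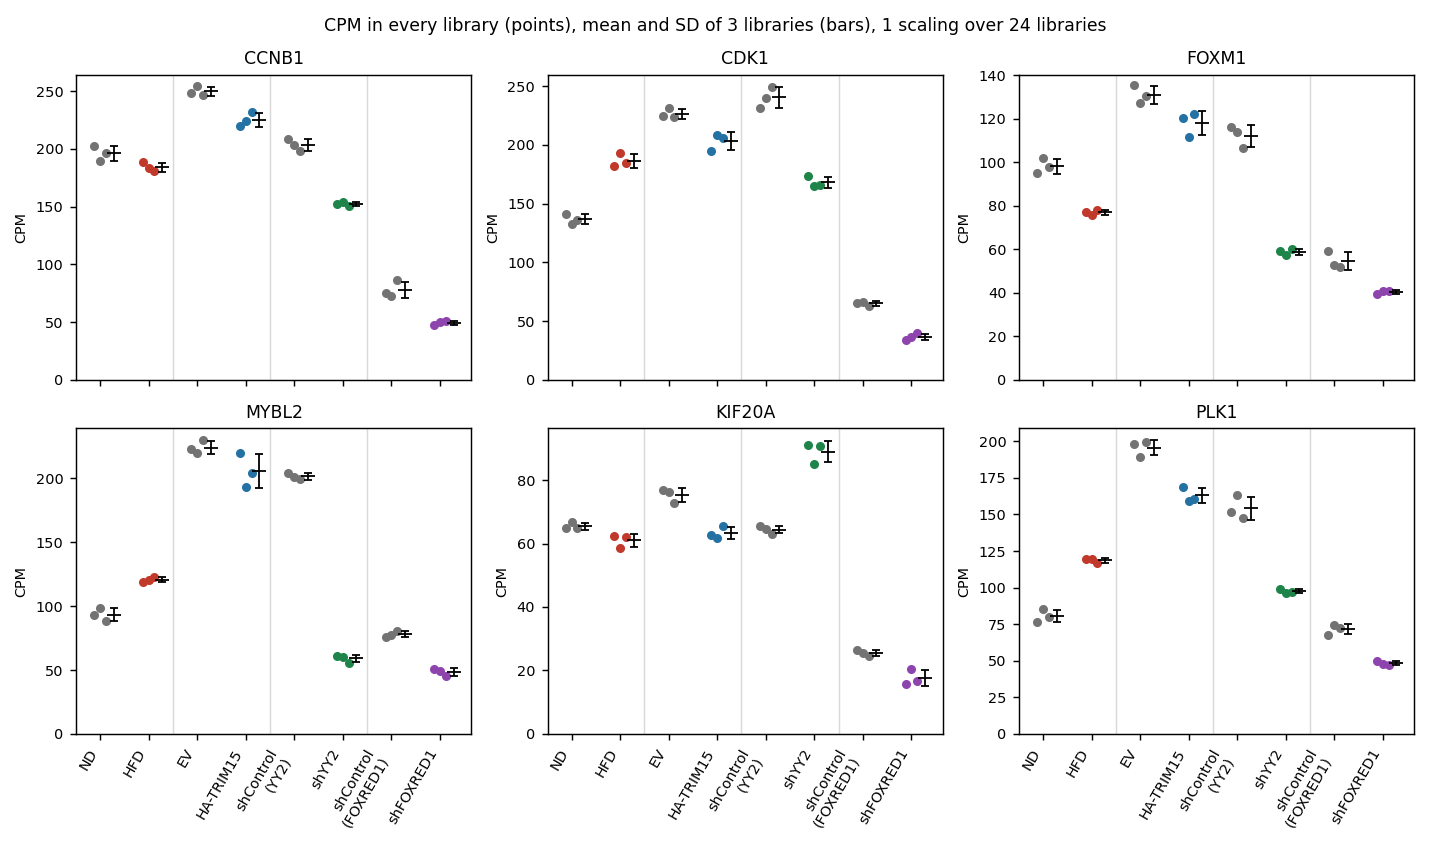
CPM (y axes, from 0, one scaling over 24 libraries) of CCNB1, CDK1, FOXM1, MYBL2, KIF20A and PLK1 in every library (points) of the 8 groups (x axis); black bars are the mean and SD of 3 libraries. Grey points are controls. KIF20A is higher in shYY2 than in its shControl, where the other 5 genes are lower.

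With shFOXRED1, 48 of the 50 members tested fell and none rose, where 19.7% of the 15730 genes tested were lower and 16.8% higher. Libraries did not overlap for 48 members, against 46.7% of all genes. At an unadjusted p under 0.05 also 0 rose, and DESeq2 called 0 higher. The median log2 fold change was -0.70 over the members and 0.012 over all genes. Medians by role lay between -0.50 for the chromosomal passenger complex and -0.84 for cytokinesis. The 2 members that did not pass, SPC25 (-0.024 ± 0.37) and PRC1 (-0.32 ± 0.44), had at most 2.05 CPM, and NUSAP1 was too low to be tested. Fibroblast markers summed to 38.6 to 42.0 CPM with shFOXRED1 and 24.3 to 25.7 with shControl. Of these 10 markers 1 was high enough to be tested, and COL1A2, DCN, PDGFRA and THY1 were at 0 in all shFOXRED1 libraries. Leukocyte markers (21.76 to 24.99 against 25.69 to 28.33 CPM) and endothelial markers (17.92 to 22.71 against 23.24 to 28.11) went the other way. These groups, too, were OE33 cultures, and the sums do not count such cells.

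The 3 largest falls were in CENPE, MAD2L1 and DLGAP5. CENPE, the kinetochore kinesin that carries chromosomes to the spindle equator, was at 18.9, 20.4 and 25.2 CPM in shFOXRED1 and 40.9, 43.3 and 48.1 CPM in shControl (log2 fold change -1.04 ± 0.10, SE, adjusted p = 4.1e-07). MAD2L1 was at 14.9, 15.8 and 16.6 CPM in shFOXRED1 and 32.1, 31.8 and 31.2 CPM in shControl (log2 fold change -1.01 ± 0.089, SE, adjusted p = 1.3e-07). DLGAP5, which stabilizes kinetochore fibres, was at 14.6, 12.1 and 14.4 CPM in shFOXRED1 and 25.4, 24.6 and 32.8 CPM in shControl (log2 fold change -1.01 ± 0.12, SE, adjusted p = 4.9e-06). These were the 3 members that fell at least 2-fold, and no libraries overlapped. BUB1B was at 17.0, 18.9 and 21.5 CPM in shFOXRED1 and 32.2, 31.7 and 34.0 CPM in shControl (log2 fold change -0.78 ± 0.095, SE, adjusted p = 6.3e-06), and BUB1 fell further (-0.93 ± 0.11). BUB3, which has roles outside mitosis, fell least of all called members (-0.30 ± 0.055).

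CDK1 was at 34.5, 36.6 and 40.3 CPM in shFOXRED1 and 65.6, 66.9 and 64.0 CPM in shControl (log2 fold change -0.82 ± 0.073, SE, adjusted p = 1.4e-07). CCNB1 was at 48.5, 50.7 and 51.9 CPM in shFOXRED1 and 75.3, 73.2 and 87.0 CPM in shControl (log2 fold change -0.64 ± 0.074, SE, adjusted p = 3.1e-06). The kinase and its cyclin were thus lower in every shFOXRED1 library than in any shControl library. PLK1 was at 50.6, 48.3 and 47.8 CPM in shFOXRED1 and 68.2, 74.7 and 73.5 CPM in shControl (log2 fold change -0.56 ± 0.067, SE, adjusted p = 4.5e-06). FOXM1 was at 40.2, 41.5 and 41.2 CPM in shFOXRED1 and 59.6, 53.0 and 52.5 CPM in shControl (log2 fold change -0.43 ± 0.072, SE, adjusted p = 1.8e-04). MYBL2 was at 51.5, 49.7 and 45.7 CPM in shFOXRED1 and 76.5, 77.7 and 81.7 CPM in shControl (log2 fold change -0.68 ± 0.068, SE, adjusted p = 5.4e-07). All 6 genes of the cyclin and CDK1 group and both transcription factors were lower without overlap. AURKB was at 8.04, 7.41 and 6.70 CPM in shFOXRED1 and 9.46, 12.0 and 11.4 CPM in shControl (log2 fold change -0.56 ± 0.14, SE, adjusted p = 0.0038). SPC24 was at 5.38, 5.89 and 4.72 CPM in shFOXRED1 and 8.91, 7.37 and 8.29 CPM in shControl (log2 fold change -0.62 ± 0.15, SE, adjusted p = 0.0039). CENPA was at 6.21, 8.00 and 6.29 CPM in shFOXRED1 and 9.96, 11.9 and 11.7 CPM in shControl (log2 fold change -0.70 ± 0.14, SE, adjusted p = 8.5e-04). These 3 low genes also had no overlap between the groups.

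CDC20 was at 20.5, 21.5 and 16.6 CPM in shFOXRED1 and 32.8, 34.6 and 29.4 CPM in shControl (log2 fold change -0.72 ± 0.10, SE, adjusted p = 3.3e-05). KIF11 was at 40.6, 43.4 and 48.5 CPM in shFOXRED1 and 69.3, 68.2 and 77.1 CPM in shControl (log2 fold change -0.70 ± 0.078, SE, adjusted p = 2.0e-06). TPX2 had 1839, 1849 and 1523 counts in shFOXRED1 and 2754, 2329 and 2337 in shControl (log2 fold change -0.60 ± 0.055, SE, adjusted p = 1.9e-07). These act at mitotic exit, on spindle pole separation and in spindle assembly. ANLN was at 84.7, 87.0 and 96.1 CPM in shFOXRED1 and 156, 167 and 167 CPM in shControl (log2 fold change -0.87 ± 0.062, SE, adjusted p = 1.1e-08). TOP2A was at 108, 115 and 123 CPM in shFOXRED1 and 183, 191 and 206 CPM in shControl (log2 fold change -0.75 ± 0.064, SE, adjusted p = 9.2e-08). In each of CDC20, KIF11, TPX2, ANLN and TOP2A the shFOXRED1 libraries lay below all shControl libraries. The 4 members that rose with shYY2 fell here: KIF20A (-0.53 ± 0.11), PTTG1 (-0.83 ± 0.10), CDC25C (-0.85 ± 0.15) and NEK2 (-0.86 ± 0.099). Leaving out any library left 47 or 48 members lower. Of all calls 46.1% were higher, against 57.3% with library totals.

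Whether 2 experiments differed in their effects was tested in a joint fit over the 24 libraries, whose scaling differs slightly from that within an experiment. Between shYY2 and shFOXRED1, 30 of 51 members differed, a count near the share over all genes, as 55.5% of the 17980 genes tested did. The change was higher with shYY2 in 25 and lower in 5. Each change is against the experiment's own shControl, and the members stood in the FOXRED1 shControl at a median 0.376 times their level in the other. This difference between the experiments cannot be told apart from that between the hairpins. The 4 members that rose with shYY2 had some of the largest differences, with CDC25C at 1.12 ± 0.11, SE, adjusted p = 7.2e-10, PTTG1 at 1.07 ± 0.11, NEK2 at 1.05 ± 0.089 and KIF20A at 1.00 ± 0.089. BUB1 (0.89 ± 0.095), ASPM (0.88 ± 0.079), TOP2A (0.74 ± 0.061), KIF2C (0.72 ± 0.080) and CCNB2 (0.64 ± 0.090) fell with shFOXRED1 and did not pass with shYY2. In the other direction stood MYBL2 (-1.08 ± 0.074, SE, adjusted p = 1.4e-13), SMC2 (-0.54 ± 0.082), FOXM1 (-0.49 ± 0.073), HMMR (-0.23 ± 0.081) and SPC25 (-1.59 ± 0.47). In all, 39 of the 50 members tested in both knockdowns were called lower in both, as were 12.7% of the 14922 genes tested in both.

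**Figure D5:**
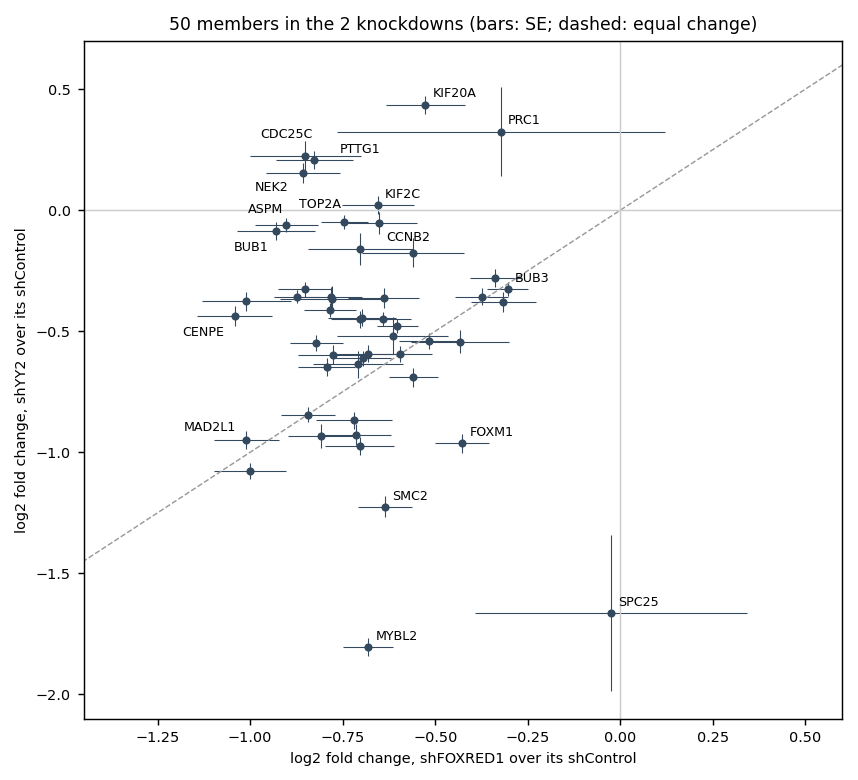
log2 fold change with shYY2 (y axis) against that with shFOXRED1 (x axis) for the 50 members tested in both; bars are SEs and the dashed line marks equal change. KIF20A, CDC25C, PTTG1 and NEK2 lie above 0 with shYY2 and below 0 with shFOXRED1, and MYBL2, SMC2 and FOXM1 lie below the line.

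Between HA-TRIM15 and shYY2, 38 of 51 members differed, where 57.4% of all genes did. The change was higher with HA-TRIM15 in 34 and lower in 4. HA-TRIM15 cells were taken at 48 h and shYY2 cells at 72 h, and time cannot be told apart from the treatment. MYBL2 (1.65 ± 0.067, SE, adjusted p = 5.4e-19), SMC2 (1.18 ± 0.074) and NCAPG (0.99 ± 0.075) fell with shYY2 and did not pass with HA-TRIM15. The 4 in the other direction were KIF20A (-0.71 ± 0.074, SE, adjusted p = 1.1e-09), CDC25C (-0.48 ± 0.089), PTTG1 (-0.37 ± 0.085) and KIF2C (-0.16 ± 0.063). For SPC24 the difference did not pass (0.13 ± 0.11, SE, adjusted p = 0.33), nor for CCNF (-0.0043 ± 0.079).

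Between HFD and HA-TRIM15, 27 of 51 members differed, where 28.4% of all genes did, and the change was higher with HFD in 26. PLK1 (0.82 ± 0.061, SE, adjusted p = 8.3e-12), CCNA2 (0.73 ± 0.062) and CDK1 (0.60 ± 0.058) differed most. They rose in HFD xenografts, where TRIM15 RNA was higher than in ND, and fell with HA-TRIM15. FOXM1 was the exception, with a lower change in HFD (-0.20 ± 0.063, SE, adjusted p = 0.017).

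Across the experiments, 26 members were higher in HFD and lower in both knockdowns, a pattern of 6.85% of all genes tested in these experiments. With HA-TRIM15 and in both knockdowns 17 were lower, a pattern of 1.78% of all genes. Of these 17, 9 were also higher in HFD (0.806% of all genes), namely ANLN, AURKA, BIRC5, BUB3, CCNA2, CDC20, CDK1, PLK1 and UBE2C. FOXM1 and CCNB1 were called lower in all 4 experiments, as were 0.262% of all genes, with the limits given above on the HFD call of CCNB1 and on the HA-TRIM15 call of FOXM1. KIF20A, PTTG1, CDC25C and NEK2, higher with shYY2 and lower with shFOXRED1, shared that pattern with 5.07% of all genes. NUSAP1 and PRC1 were called in none. NUSAP1 had log2 fold changes of -0.50 ± 0.28 (HFD), 0.12 ± 0.29 (HA-TRIM15) and -0.39 ± 0.28 (shYY2), and PRC1 of 0.38 ± 0.18, -0.19 ± 0.19, 0.32 ± 0.18 and -0.32 ± 0.44 in the 4 experiments.

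Other genes of mitosis, listed by role, were counted beside the members. Of all genes tested, 25.6% were higher and 23.9% lower in HFD, and 12.5% and 9.53% with HA-TRIM15. With shYY2 these shares were 36.8% and 38.1%, and with shFOXRED1 16.8% and 19.7%. Of 44 other mitotic genes, 21 rose and 5 fell in HFD (median log2 fold change 0.13), 2 rose and 15 fell with HA-TRIM15 (-0.052), 7 rose and 34 fell with shYY2 (-0.56), and of 43 tested 2 rose and 36 fell with shFOXRED1 (-0.57). MKI67, the proliferation marker Ki-67, had log2 fold changes of 0.32 ± 0.037, -0.038 ± 0.032 (not called), -0.56 ± 0.030 and -0.73 ± 0.054 in that order. Of 30 other kinetochore and centromere proteins tested, 15 rose and 2 fell in HFD, 2 rose and 6 fell with HA-TRIM15, 1 rose and 28 fell with shYY2 (median -0.94), and 1 rose and 24 fell with shFOXRED1 (median -0.54). ZWINT, which recruits checkpoint proteins to the kinetochore, fell by 1.90 on the log2 scale with shYY2.

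Genes of the anaphase-promoting complex and its regulators (17 genes, FZR1, FBXO5 and UBE2S among them) were also counted. In HFD 5 rose and 2 fell, and with HA-TRIM15 0 rose and 3 fell. With shYY2 1 rose and 11 fell, and with shFOXRED1 2 rose and 4 fell. Of 17 cohesin and other condensin genes, 4 rose and 3 fell in HFD, 5 rose and 2 fell with HA-TRIM15, 4 rose and 12 fell with shYY2, and 1 rose and 11 fell with shFOXRED1. In both lists the number that rose in HFD lay near the share over all genes, 25.6%. The counts of anaphase-promoting complex genes with shFOXRED1 also lay near the shares over all genes, 16.8% higher and 19.7% lower. NCAPD2, a condensin subunit, rose in HFD (0.85 ± 0.035). The list of 37 genes of the G1/S transition and replication licensing, which act before mitosis, had 24 higher and 1 lower in HFD, and 2 higher and 17 lower with HA-TRIM15. With shYY2 it had 0 higher and 36 lower (median -1.60), and with shFOXRED1 0 higher and 34 lower (median -0.72). The members had medians of -0.44 and -0.70 in these knockdowns. MCM10, a replication factor, fell by 3.19 on the log2 scale with shYY2, and E2F1, the S phase transcription factor, had changes of -2.03 ± 0.053 with shYY2 and -0.86 ± 0.092 with shFOXRED1.

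Of 25 MuvB, DREAM and CDK inhibitor genes, 8 rose and 10 fell in HFD, 5 rose and 3 fell with HA-TRIM15 (24 tested), 8 rose and 15 fell with shYY2, and 3 rose and 10 fell with shFOXRED1. The 8 that rose with shYY2 lay near the share over all genes, 36.8%. CDKN1A, the CDK inhibitor p21, rose in HFD (0.64 ± 0.034) and with HA-TRIM15 (0.19 ± 0.038), and fell with shYY2 (-0.64 ± 0.029) and shFOXRED1 (-0.24 ± 0.062). CDKN1B, the inhibitor p27, fell in HFD (-0.55 ± 0.038) and rose with shYY2 (1.49 ± 0.042). RBL1, the pocket protein p107, fell by 2.21 on the log2 scale with shYY2. Of the 3 copies of members, at most 1 was high enough to be tested in an experiment.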

How the data were processed

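RNA of 24 OE33 libraries in 8 groups of 3 was sequenced by the authors as 150-base paired reads. The 4 deposited tables hold raw counts per Ensembl gene and library, which the authors made with an aligner, counter and annotation not given in the sources used here. The submitters' processing notes name the builds hg38 and mm10 without a role. The tables' values are unnormalized, and library totals, which set the precision of a gene's count, ranged from 14299807 to 45994561.

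Groups and replicate numbers came from the labels. Each experiment was fitted alone in edgeR 4.0.16 (R 4.3.3), with genes kept by filterByExpr (minimum count 10, minimum total 15), TMM factors, and glmQLFit and glmQLFTest for treated against control. P-values were adjusted over all genes tested by the Benjamini-Hochberg method, with a threshold of 0.05. Differences between effects were contrasts in a joint fit of all 24 libraries. Errors of log2 fold changes are SEs and those of levels are SDs. With 3 against 3 libraries an exact test could not go below 0.1, so none was used. Symbols came from the reference tables (99.8% of identifiers named), exon lengths from GENCODE 29 (94.3%), and promoters from RefSeq (GRCh38.p14).

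All members could be named. Values in every library were given for CCNB1, CDK1, FOXM1, MYBL2, PLK1, AURKB, BUB1B, MAD2L1, SPC24, CENPA, CDC20, KIF11, TPX2, ANLN and TOP2A, and for the 3 members with the largest change in each direction in an experiment. Of other lists, the 3 genes with the largest change per experiment could be named. The members and lists were chosen with earlier results of these data known. Alternatives were DESeq2 1.42.0 (size factors, Wald test), upper-quartile factors, library totals, other filters, a replicate block, fold minimums and each library left out. The fits were tested on simulated data. No 2 replicates differed by less than the sampling noise (chi-square per gene 1.47 to 7.94).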

Additional observations from a re-analysis of the deposited data

Results flagged for a closer look

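Effects of 2 experiments on the same members differed by the test of the difference in the joint fit, and these are descriptions of which genes moved apart. The effects of HA-TRIM15 and shYY2 differed for 38 of 51 members, where 57.4% of all genes tested differed. These experiments also differ in time (48 h and 72 h), which cannot be told apart from the treatment. The difference in log2 fold change, HA-TRIM15 minus shYY2, was 1.65 for MYBL2, 1.30 for SPC25 (at most 2.42 CPM in any library of the shYY2 experiment) and 1.18 for SMC2.

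The effects of shYY2 and shFOXRED1 differed for 30 of 51 members, where 55.5% of all genes tested differed. This count lies near the share over all genes and sets the members apart little. The members also stood at different levels in the shControl cells of these experiments, which cannot be told apart from the hairpin. The difference, shYY2 minus shFOXRED1, was -1.59 for SPC25, 1.12 for CDC25C and -1.08 for MYBL2.

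The effects of HFD and HA-TRIM15 differed for 27 of 51 members, where 28.4% of all genes tested differed. The difference, HFD minus HA-TRIM15, was 0.82 for PLK1, 0.73 for CCNA2 and 0.60 for CDK1. The xenografts and the cultures also differ in host, diet and time, which cannot be told apart from the treatment.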

How the results depend on the processing

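No member median and no called value of a member given in every library changed sign under the alternatives run. Values that had not passed changed sign near 0 for AURKB in HFD, KIF11 and MAD2L1 with HA-TRIM15 and TOP2A with shYY2. The median over all genes changed sign with shYY2, from -0.0081 to 0.074 with upper-quartile factors, and the shares of all calls that were higher moved as given in the report. In HFD, members higher were 19 with upper-quartile factors, 13 with library totals, 9 at a fold of at least 1.2 and 0 at 2. Members lower were 1 with DESeq2's size factors, without a filter, with the DESeq2 Wald test or at a fold of 1.2, 6 with upper-quartile factors, 7 with library totals, 0 at a fold of 2, and 1 to 2 with a library left out. The HFD median was 0.0787 with upper-quartile factors and 0.0266 with library totals. With HA-TRIM15, members higher were 1 with upper-quartile factors, library totals or no filter, 0 at a fold of 1.2 or 2, and 1 to 4 with a library left out. Members lower were 2 at a fold of 1.2, 0 at 2, and 12 to 22 with a library left out (12 without EV replicate 3, 13 without EV replicate 1). The median was -0.140 with library totals and -0.112 to -0.0794 with a library left out. With shYY2, members higher were 1 at a fold of 1.2 and 0 at 2, members lower were 4 at a fold of 2, and the median was -0.361 with upper-quartile factors, -0.419 with at least 10 counts in every library and -0.465 to -0.434 with a library left out. With shFOXRED1, 3 were lower at a fold of 2. The cause of these changes was not tested, except that the fold minimums and left-out libraries remove genes or samples by construction. Of single named genes, 878 values kept their call, 58 lost it and 12 gained it. Deviations of samples with the same number correlated at -0.0275 to 0.097 over all genes tested. Over genes above 10 CPM they correlated at 0.211, 0.125 and 0.41 in the FOXRED1 experiment, and at -0.079 to 0.206 in the others, where not every pair was over 0.1. The labels give no reason to pair them. With the replicate block, members higher and lower were 30 and 2 (HFD), 2 and 21 (HA-TRIM15), 4 and 42 (shYY2), and 0 and 48 (shFOXRED1, where calls over all genes went from 2650 and 3102 to 3157 and 3636), and the differences between effects numbered 39, 31 and 31. Among the genes given in every library, the block ended the calls of KIF20A in HFD and TOP2A with HA-TRIM15 and added MYBL2 with HA-TRIM15. NUSAP1, PRC1 and SPC25 had few counts, which limits their precision.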
